A study of Mus musculus with 22 samples.

Results

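Clone C43 is a GFP reporter line of mouse mpkCCD cells, an established kidney line of cortical collecting duct origin (mpkCCDc11, secondary clone 38), and its cells were sorted by GFP, into negative and positive cells, after treatment with dDAVP (desmopressin), a synthetic agonist of the vasopressin V2 receptor. The C43 libraries were taken from the labels: 2 GFP-negative and 2 GFP-positive libraries, 4 of the 22 in the series. The other 18 were 12 libraries of the reporter clones C1, C11 and C50, sorted the same way after dDAVP with 2 libraries per clone and fraction, and 6 libraries of wild-type (WT) mpkCCD cells without sorting, 3 given vehicle and 3 given dDAVP. All cells were grown on transwell filters, and their last medium, without serum or growth factors, contained dexamethasone. The labels list more than 1 dose and more than 1 duration of dDAVP without assigning them to libraries, and they do not state what drives the GFP reporter or where the sorting gates lay. Each clone is a single cell line, so a property of C43 is that of 1 clone. Nothing in the labels says that the replicates came from separate cultures, so p-values measure only the spread between these libraries, which may be technical.

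Principal cells of the collecting duct reabsorb water through aquaporin-2, a channel encoded by Aqp2. Vasopressin binds the V2 receptor (Avpr2) on the basolateral side, cAMP rises, protein kinase A is activated, and over hours the transcription of Aqp2 goes up while stored channels move to the apical membrane. A reporter in single cells makes it possible to separate cells that respond by different amounts to the same agonist, and the comparison within C43 asks which transcripts go with the GFP signal in dDAVP-treated cells of 1 clone.

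Expression was given as TPM (a share of the library normalized for transcript length), which keeps no read depth, so the depth behind each value is unknown and no counting interval can be given. In C43, 12588 to 14341 genes had a TPM of at least 1, against 12293 to 13839 in the libraries of the other clones. Replicate 1 of both C43 fractions had more genes above 0 (30855 in the GFP-negative and 29973 in the GFP-positive library) than replicate 2 (19002 and 19556). Mitochondrial genes made up 1.5% and 1.45% of TPM in the GFP-negative and 1.91% and 1.84% in the GFP-positive C43 libraries. In the other clones their share was 1.07% to 1.85%, and its part in the fraction changes was not tested. The libraries of the 2 replicates differed by a median of 0.141 on the log2(TPM + 1) scale in the GFP-negative fraction of C43 and by 0.238 in its GFP-positive fraction. In the other clones that spread was 0.121 to 0.202, except for the GFP-negative fraction of C50, where it was 0.508. Markers of other cell types were low in C43. Summed over 7 fibroblast markers the level was 0.04 to 1.69 TPM, over 5 endothelial markers 0.06 to 1.63, over 4 thick ascending limb markers 0 to 0.87, and over 6 proximal tubule markers 4.3 to 6.37, most of it Lrp2. The 6 immune markers summed to 10.1 to 12.71 TPM, most of it Cd68. The 6 epithelial markers summed to 12850 to 16910 TPM, and 24 principal cell genes to 6159 and 6547 TPM in the GFP-negative against 15450 and 15930 TPM in the GFP-positive libraries.

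The promoters of the genes on which the C43 results turn are shown here as the 250 bases before the RefSeq transcription start (assembly GRCm38.p6, 5′ to 3′ on the strand of the gene). Aqp2 (chr15:99578806-99579055, + strand) is the water channel itself, Tnfrsf12a (chr17:23677450-23677699, - strand) and Stbd1 (chr5:92602801-92603050, + strand) fell further in C43 than in the other clones, and Ect2 (chr3:27153879-27154128, - strand), Plk1 (chr7:122159185-122159434, + strand) and Ccnb2 (chr9:70421555-70421804, - strand) stand for the mitotic genes that were lower in GFP-positive cells. No window is shown for Bsnd, described with Tnfrsf12a and Stbd1 below. Capitals mark matches, on either strand, to any of 5 motifs chosen with the results known: the cAMP response element TGACGTCA, its short form TGACG (contained in the long form), the CCAAT box CCAAT, the cell cycle element CHR TTTGAA, and the AP-1 element TGANTCA.
Aqp2: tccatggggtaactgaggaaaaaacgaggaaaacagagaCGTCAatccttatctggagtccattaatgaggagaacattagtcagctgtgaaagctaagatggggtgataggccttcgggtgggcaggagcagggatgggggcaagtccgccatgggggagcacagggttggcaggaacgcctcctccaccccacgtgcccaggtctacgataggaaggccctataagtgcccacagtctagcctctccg
Tnfrsf12a: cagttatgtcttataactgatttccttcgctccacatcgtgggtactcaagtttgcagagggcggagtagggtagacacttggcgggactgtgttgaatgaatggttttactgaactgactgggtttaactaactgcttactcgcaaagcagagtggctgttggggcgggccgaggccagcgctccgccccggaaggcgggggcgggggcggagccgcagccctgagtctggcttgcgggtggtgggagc
Stbd1: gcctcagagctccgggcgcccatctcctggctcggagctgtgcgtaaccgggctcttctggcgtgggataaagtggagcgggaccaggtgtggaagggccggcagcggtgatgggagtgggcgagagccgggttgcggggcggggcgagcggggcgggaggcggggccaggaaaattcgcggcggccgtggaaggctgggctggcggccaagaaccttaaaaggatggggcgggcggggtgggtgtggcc
Ect2: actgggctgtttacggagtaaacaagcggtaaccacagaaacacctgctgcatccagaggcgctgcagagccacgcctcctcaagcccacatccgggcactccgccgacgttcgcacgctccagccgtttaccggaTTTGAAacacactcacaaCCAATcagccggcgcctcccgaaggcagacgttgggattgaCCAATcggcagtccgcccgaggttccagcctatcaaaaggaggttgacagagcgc
Plk1: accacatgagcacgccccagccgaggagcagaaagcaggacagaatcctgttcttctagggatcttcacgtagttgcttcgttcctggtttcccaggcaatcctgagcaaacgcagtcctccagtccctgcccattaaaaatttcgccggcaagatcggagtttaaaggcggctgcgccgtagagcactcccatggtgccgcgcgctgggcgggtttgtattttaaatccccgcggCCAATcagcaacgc
Ccnb2: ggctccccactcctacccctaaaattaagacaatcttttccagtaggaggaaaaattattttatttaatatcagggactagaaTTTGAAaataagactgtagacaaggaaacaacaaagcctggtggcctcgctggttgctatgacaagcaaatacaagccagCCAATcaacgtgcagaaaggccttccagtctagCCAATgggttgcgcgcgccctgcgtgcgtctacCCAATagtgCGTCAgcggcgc
The Aqp2 window held 1 match to TGACG, on the opposite strand (written CGTCA), and none to the other motifs. The Ect2 window held 2 CCAAT boxes and 1 CHR, the Plk1 window 1 CCAAT box and no CHR, and the Ccnb2 window 3 CCAAT boxes, 1 CHR and 1 TGACG, while the windows of Tnfrsf12a and Stbd1 held none of the 5. Over 27025 genes with a RefSeq window, 34.5% held a CCAAT box, 16.3% a CHR, 17.9% a TGACG, 1.62% a TGACGTCA and 6.87% a TGANTCA.

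GFP separated the C43 fractions, and Aqp2 rose with it. GFP transcript stood at 17.57 and 15.18 TPM in the GFP-negative and at 1064.51 and 1164.24 TPM in the GFP-positive libraries. Aqp2 stood at 1567.86 and 1679.76 TPM against 6649.25 and 7254.30 TPM. The fractions did not overlap for either gene, and the 2 libraries of each fraction lay close together. Mean Aqp2 went from 1624 ± 79.1 TPM to 6952 ± 428 TPM (SD, n = 2 each), a ratio of 4.28, which is also the ratio in the authors' deposited table. On the log2(TPM + 1) scale the change of Aqp2 was 2.10 (SE 0.0872, adjusted p = 2.5e-07) and that of GFP 6.01 (SE 0.223, adjusted p = 1.07e-07), by limma over 13113 genes. The cells were sorted by GFP, so a GFP difference was fixed by the design and its tests give no support. An exact two-sided permutation test over the 4 C43 libraries alone gave p = 0.3333 for each gene, the smallest value that its 6 arrangements allow. Quantile normalization reduced the Aqp2 change to 1.58. In bulk libraries, fewer cells with a transcript and less of it per cell cannot be told apart, for this and every result below.

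**Figure D1:**
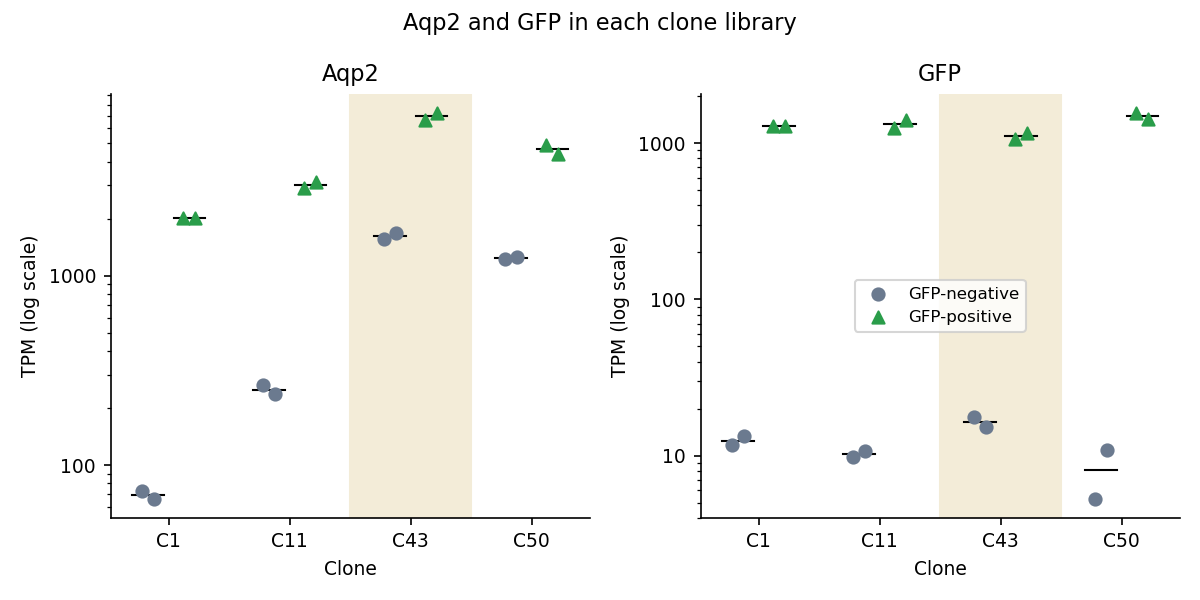
Aqp2 (left) and GFP (right) in TPM on a log axis for every clone library; circles are GFP-negative and triangles GFP-positive libraries, black bars are means of 2 libraries, and the shaded column is C43. In C43 the GFP-negative libraries hold 1568 and 1680 TPM of Aqp2, above the GFP-negative libraries of the other clones.

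The GFP-negative cells of C43 were rich in Aqp2. Their 1624 ± 79.1 TPM compares with 69.54 ± 4.29 in the GFP-negative fraction of C1, 249.4 ± 19.2 in that of C11 and 1243 ± 16.2 in that of C50 (SD, n = 2 each). WT cells held 69.13 ± 5.43 TPM with vehicle and 2868 ± 139 TPM with dDAVP (SD, n = 3 each), so the GFP-negative C43 libraries lay between these and the GFP-positive ones lay above both. GFP-positive C43 cells also had the highest Aqp2 of the GFP-positive fractions, 6952 ± 428 TPM against 2017 ± 13.5 in C1, 3002 ± 150 in C11 and 4651 ± 342 in C50. GFP itself was lowest in C43 among the positive fractions, with 1114 ± 70.5 TPM against 1292 ± 3.24, 1327 ± 103 and 1496 ± 101 in C1, C11 and C50; the highest C43 library, at 1164.24 TPM, lay below the lowest of these, at 1254.16 TPM. As a ratio of TPM values, the C43 libraries carried 89.2 and 111 units of Aqp2 per unit of GFP when GFP-negative and 6.25 and 6.23 when GFP-positive. These levels are a description, since differences in level between clones were not tested. The fraction change of Aqp2 in C43 was smaller than the mean change of the other clones by 1.35 (SE 0.101, adjusted p = 0.000429), but it was not outside their range: C1 changed by 4.84, C11 by 3.59, C43 by 2.10 and C50 by 1.90. That difference was lost without C1, when it was -0.65 (adjusted p = 0.329), and with median-ratio scaling of the libraries it was -1.20 (adjusted p = 0.071). Over the alternatives that tested for a difference of any size the adjusted p ran from 1.34e-05 to 0.329, and a test for a difference of at least 1 gave an adjusted p of 1. For GFP the difference was -0.96 (SE 0.257, adjusted p = 0.47), with changes of 6.59, 6.88 and 7.43 in C1, C11 and C50. It passed the threshold with quantile normalization (-0.98, adjusted p = 0.0199) and without replicate 1 or replicate 2 of the GFP-negative fraction of C50 (-0.81, adjusted p = 0.0395, and -1.11, adjusted p = 0.00302).

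Across all genes the fractions of C43 differed widely, mostly by lower levels in GFP-positive cells. Of 13113 genes with a mean of at least 1 TPM over the 16 clone libraries, 2134 (16.3%) passed an adjusted p of 0.05. Of these, 562 (4.29% of genes tested) were higher and 1572 (12%) lower in GFP-positive cells, so 26.3% of the calls were higher. A log2 change of at least 1 in size was seen in 774 of them, 123 higher and 651 lower. The 2 fractions did not overlap in 7919 genes (60.4%), among them all 2134 called. The split depended on the scaling, because the median change over all genes was -0.156: after median-ratio scaling (median 0.00382) 1034 genes were higher and 1030 lower (50.1% higher), and after quantile normalization (median 0.00264) 1114 and 1198 (48.2% higher). The count also depended on the libraries in the fit. It was 881 without replicate 1 and 1198 without replicate 2 of the GFP-negative fraction of C43, 1165 without replicate 2 of its GFP-positive fraction, and 823 with the 4 C43 libraries alone. It rose to 3897 or 3901 when replicate 1 or replicate 2 of the GFP-negative fraction of C50 was left out, and to 3648 without C50. Libraries of C50 enter the C43 comparison through the shared spread, the filter over the 16 clone libraries and any scaling across libraries.

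The genes with the largest rises after GFP belonged to small RNA entries, Aqp2 and gasdermins. Mir130c, the gene of a microRNA, was listed at 0 in both GFP-negative libraries of C43 and at 76.84 and 33.93 TPM in the GFP-positive ones. A pair of small nucleolar RNA entries took the same form: Snord91a at 0 and 0 against 49.46 and 22.47 TPM, and Snora31 at 0 and 0 against 27.46 and 16.52 TPM. Outside GFP-positive C43 cells Snord91a was above 0 in 1 clone library, at 15.5 TPM in the GFP-negative fraction of C1, so it passed the filter on low values only through the fraction where it is high, and its test supports nothing. Snora73a was at 2.20 and 0 against 14.52 and 11.37 TPM (log2 change 2.95, SE 0.826, adjusted p = 0.0325), a call that was lost in 6 of 18 alternatives: with a pseudocount of 0.1, with any TPM above 0 as the filter, with the 4 C43 libraries alone, and when replicate 2 of the GFP-negative or either replicate of the GFP-positive fraction was left out. How many reads stand behind these short entries is unknown, and no fold is given where a fraction is listed at 0. Gasdermins are pore-forming proteins, and the Gsdmc genes lie in a cluster of close copies between which reads may be split. Gsdmc2 was at 45.77 and 63.78 TPM in GFP-negative and at 199.48 and 216.36 TPM in GFP-positive cells (log2 change 1.92, SE 0.210, adjusted p = 0.000129). Gsdmc3 went from 9.11 and 11.49 to 37.88 and 46.48 TPM (log2 change 1.93, adjusted p = 8.25e-05) and Gsdmc4 from 25.06 and 31.37 to 81.04 and 98.22 TPM (log2 change 1.64, adjusted p = 0.00108). These 3 of the 4 gasdermins tested rose, beside 4.29% of all genes, on a list chosen with these results known, and Gsdme did not pass the test (log2 change -0.57, adjusted p = 0.368).

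The largest falls were those of Slc4a11, Fbln2, Tinagl1, Fn1, Lhfp, Emp3, Wnt10a and Scx, of which the matrix genes Fbln2 and Fn1 are described further below. Slc4a11, a membrane transporter of the bicarbonate transporter family, was at 202.25 and 175.56 TPM in GFP-negative and at 8.39 and 8.69 TPM in GFP-positive C43 cells, 22.1 times lower (log2 change -4.31, SE 0.285, adjusted p = 4.02e-06). Scx, the transcription factor scleraxis of tendon development, went from 149.80 and 139.23 TPM to 7.44 and 12.43 TPM (log2 change -3.77, SE 0.221, adjusted p = 2.64e-06). Wnt10a, a Wnt ligand, went from 45.36 and 41.70 TPM to 1.54 and 2.86 TPM (log2 change -3.83, SE 0.261, adjusted p = 5e-06). In each of these the 2 GFP-positive libraries lay far below the GFP-negative ones. Lhfp went from 75.84 and 67.67 TPM to 4.74 and 3.31 TPM (log2 change -3.87), and Emp3, a membrane protein of the epithelial membrane protein family, from 53.28 and 57.55 to 1.57 and 5.08 TPM (log2 change -3.83). Tinagl1, a matricellular protein, was at 40.10 and 36.20 TPM against 3.38 and 0.09 TPM (log2 change -4.16, SE 0.470, adjusted p = 0.000165, but 0.0661 with the 4 C43 libraries alone). Its 2 GFP-positive libraries differed, and its change in C43 was further down than the mean of the other clones (difference -2.38, SE 0.542, adjusted p = 0.283), which did not pass the test. It passed without replicate 1 of the GFP-positive fraction of C43 (-3.39, adjusted p = 0.000946) and without replicate 2 of the GFP-negative fraction of C50 (-2.49, adjusted p = 0.0414). The calls of Slc4a11, Scx, Wnt10a, Lhfp and Emp3 held in every alternative that tested for a change of any size.

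Of 18 genes of the principal cell tested, 9 rose in GFP-positive C43 cells and none fell, with a median log2 change of 0.74 against -0.156 over all genes, of which 4.29% rose. Without replicate 1 of the GFP-negative fraction 5 rose. Avpr2, the vasopressin receptor itself, went from 154.08 and 176.61 TPM to 352.13 and 366.44 TPM (ratio 2.17, log2 change 1.12, SE 0.0855, adjusted p = 1.11e-05). Fxyd4, a regulator of the sodium pump, went from 716.99 and 835.78 TPM to 2254.63 and 2623.77 TPM (ratio 3.14, log2 change 1.65, SE 0.252, adjusted p = 0.00126). Like Aqp2, Fxyd4 was at higher levels in C43 than in the same fraction of any other clone, where it ranged from 107.29 to 433.06 TPM in GFP-negative and from 439.27 to 994.37 TPM in GFP-positive libraries. Sgk1, a kinase that acts on the epithelial sodium channel, went from 467.60 and 511.73 TPM to 1048.91 and 935.41 TPM (ratio 2.03, adjusted p = 0.00082). Scnn1g, the gamma subunit of that channel, went from 13.18 and 14.08 to 26.50 and 28.83 TPM (adjusted p = 0.00684, but 0.0634 without replicate 1 of the GFP-negative and 0.0533 without replicate 2 of the GFP-positive fraction). Members that did not pass included Scnn1a, the alpha subunit (log2 change 0.31, adjusted p = 0.616), and Aqp3, the basolateral water channel, which was at 2.15 ± 1.27 TPM in GFP-negative and 0.56 ± 0.0283 TPM in GFP-positive cells (SD, n = 2 each; adjusted p = 0.139). Among the 17 tested transcription factors of the collecting duct, 4 rose and none fell, beside 4.29% of all genes that rose. With median-ratio scaling 7 rose, beside 1034 of all 13113 genes, and with quantile normalization 8, beside 1114. With the 4 C43 libraries alone 1 rose, beside 228. The 4 factors that rose included Gata3, from 165.28 and 180.33 to 309.45 and 334.78 TPM, and Elf3, from 856.85 and 907.37 to 1443.07 and 1860.50 TPM (log2 changes 0.89 for both, adjusted p = 0.00533 and 0.000547). The Gata3 call was lost without replicate 1 of the GFP-negative fraction (adjusted p = 0.0575) and the Elf3 call with the 4 C43 libraries alone (adjusted p = 0.0605). Of 7 intercalated cell genes only Car2, a cytosolic carbonic anhydrase that principal cells express too, changed, from 255.73 and 269.93 to 441.06 and 529.38 TPM (adjusted p = 0.000484).

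**Figure D2:**
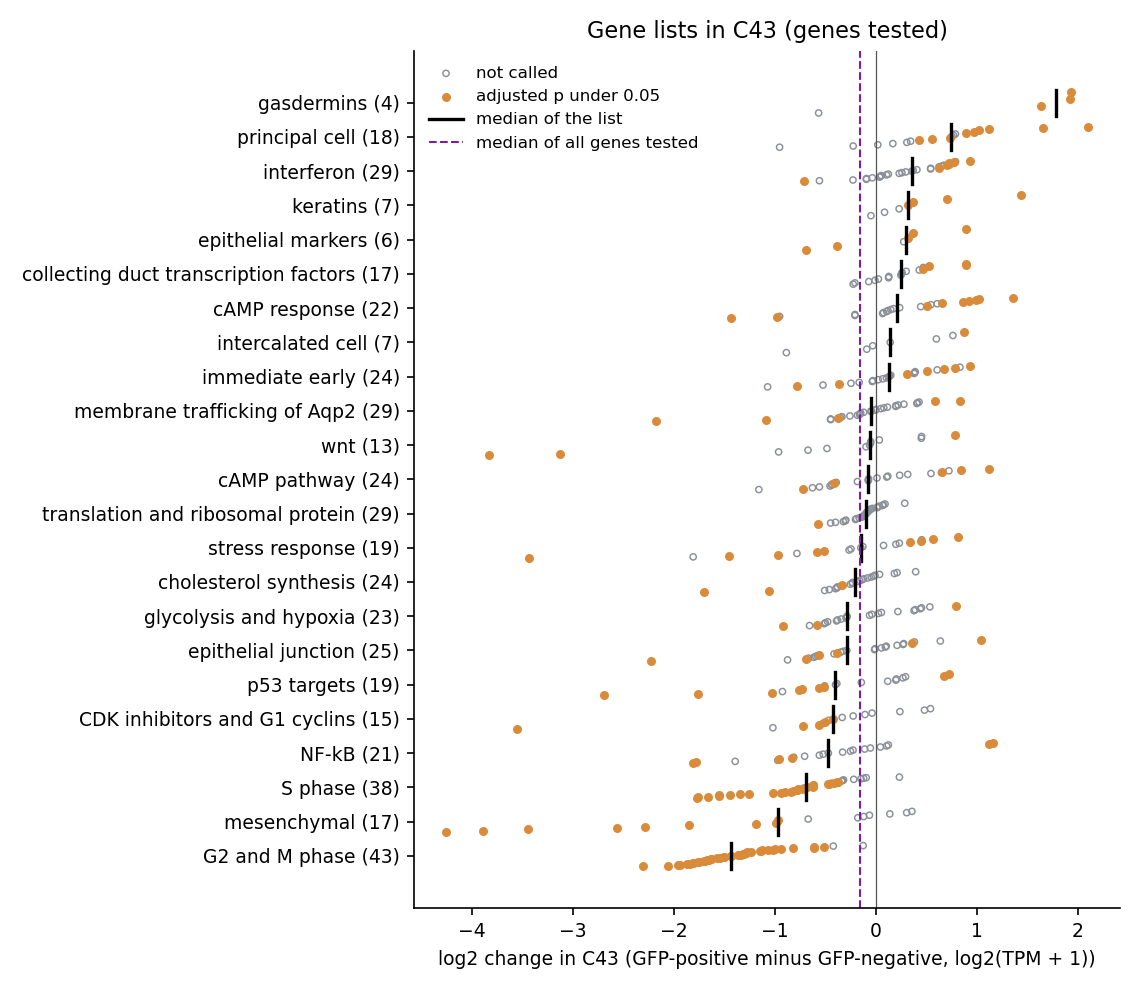
log2 change in C43 (GFP-positive minus GFP-negative, on log2(TPM + 1)) of each tested gene in 23 lists; filled points passed an adjusted p of 0.05, open points did not, black bars are list medians and the dashed line is the median of all genes, -0.156. The G2 and M phase list lies lowest, with a median of -1.43, and the gasdermins and principal cell genes lie highest, with medians of 1.78 and 0.743.

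Genes of mitosis and DNA replication fell together in GFP-positive C43 cells. Of 43 genes of G2 and M phase, 41 fell and none rose, with a median log2 change of -1.43, beside 12% of all genes that were called lower. With the 4 C43 libraries alone 28 of the 43 fell, beside 595 of all 13113 genes. Foxm1, a transcription factor of the late cell cycle, went from 26.33 and 26.40 TPM to 5.50 and 3.74 TPM (log2 change -2.30, SE 0.369, adjusted p = 0.00171). Aurkb, a mitotic kinase, went from 98.59 and 88.14 TPM to 21.72 and 24.72 TPM (log2 change -1.96, SE 0.119, adjusted p = 2.68e-06). Ect2, needed for cytokinesis, went from 72.53 and 67.78 TPM to 22.93 and 11.18 TPM (log2 change -2.06, adjusted p = 0.00171, but 0.0649 with the 4 C43 libraries alone). Plk1, a kinase of mitotic entry, went from 43.52 and 36.31 TPM to 10.09 and 11.27 TPM (log2 change -1.80, adjusted p = 0.000186). The cyclin B genes fell by like amounts: Ccnb2 went from 63.70 and 56.48 to 16.87 and 17.06 TPM and Ccnb1 from 63.74 and 52.60 to 19.02 and 14.36 TPM (log2 changes -1.76 and -1.75). The 2 members that did not pass were Cdc25b (log2 change -0.42, adjusted p = 0.288) and Smc4 (-0.13, adjusted p = 0.56). Transcripts were still present in GFP-positive cells, with means 5.71, 4.11 and 4.02 times lower for Foxm1, Ect2 and Aurkb. Of the 41 genes that fell, 34 had a RefSeq promoter window, and 79.4% of these held a CCAAT box as in the Ect2, Plk1 and Ccnb2 sequences above, against 37% of the 9354 tested genes with a window. A CHR was present in 38.2% against 10.4%. These shares are a description of a list chosen for its function.

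Of 38 S phase genes, 26 fell and none rose, with a median of -0.689, beside 12% of all genes that fell. Without replicate 1 of the GFP-negative fraction 14 fell, and with the 4 C43 libraries alone 11. Rrm2, a subunit of ribonucleotide reductase, went from 152.07 and 141.35 TPM to 38.91 and 45.99 TPM (log2 change -1.77, SE 0.193, adjusted p = 0.000128), and Mcm10, a replication initiation factor, from 30.46 and 27.87 to 8.89 and 8.16 TPM (log2 change -1.66, adjusted p = 0.0017). Pcna, the sliding clamp, moved less, from 293.68 and 276.26 to 228.15 and 212.01 TPM (log2 change -0.37, adjusted p = 0.00812), and its call was lost with median-ratio scaling (-0.18, adjusted p = 0.416), without replicate 1 of the GFP-negative fraction (adjusted p = 0.0703) and with the 4 C43 libraries alone (adjusted p = 0.0705). With median-ratio scaling 39 G2 and M phase genes and 17 S phase genes fell, and with quantile normalization 39 and 23, with 1 S phase gene higher. Ccnd1, cyclin D1 of the G1 phase, was among the steepest falls of any list, from 24.37 and 22.99 TPM to 1.08 and 1.13 TPM (log2 change -3.55, SE 0.243, adjusted p = 5e-06). It was 1 of 5 genes that fell among 15 CDK inhibitors and G1 cyclins, of which none rose. The falls numbered 2 or 3 when replicate 1 or 2 of the GFP-negative or replicate 1 of the GFP-positive fraction was left out, 2 with median-ratio scaling (1 rose), 4 after quantile normalization (3 rose), and 8 (1 rose) with either GFP-negative library of C50 left out.

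Genes of mesenchymal cells and extracellular matrix fell as well. Of 17 tested, 9 fell and none rose, with a median of -0.967, beside 12% of all genes that fell. Fn1, fibronectin, went from 28.95 and 36.98 TPM to 2.22 and 0.62 TPM (log2 change -3.88, adjusted p = 3.94e-05), and Fbln2, the matrix protein fibulin 2, from 29.93 and 27.22 to 1.41 and 0 TPM (log2 change -4.25, adjusted p = 4.05e-05). Spp1, osteopontin, went from 16.08 and 16.85 to 0.69 and 0.53 TPM, and Timp1, an inhibitor of matrix metalloproteinases, from 15.66 and 15.64 to 2.39 and 2.46 TPM. Ccn2, a matricellular protein that mechanical tension and YAP induce, was abundant throughout, at 2364.86 and 2060.05 TPM against 947.81 and 996.76 TPM (log2 change -1.18, SE 0.126, adjusted p = 0.000117). Fibroblast markers proper summed to at most 1.69 TPM in any C43 library. Members of the list that did not pass included Sparc (-0.97, adjusted p = 0.1) and Tagln (0.36, adjusted p = 0.423).

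Other lists held changes in both directions, to be read against the 4.29% of all genes that rose and the 12% that fell. Of 19 p53 targets, 7 fell and 2 rose, with 3 or 4 falls when any 1 C43 library was left out. Gadd45a, a growth arrest gene, went from 167.07 and 162.82 TPM to 25.78 and 23.74 TPM (log2 change -2.69, SE 0.120, adjusted p = 3.37e-07), whereas Btg2, an antiproliferative gene, went from 1561.30 and 1598.42 to 2508.25 and 2536.88 TPM (0.67, adjusted p = 0.00071, but 0.0817 after quantile normalization). Of 19 stress response genes, 5 fell and 4 rose; 3 fell and 2 rose without replicate 1 of the GFP-negative fraction, and 2 rose without replicate 2 of either fraction. Trib3, a pseudokinase induced by the integrated stress response, went from 211.87 and 185.68 TPM to 21.70 and 14.06 TPM (log2 change -3.43, SE 0.250, adjusted p = 8.11e-06). Of 21 NF-kB genes, 4 fell and 2 rose; the rises numbered 0 or 1 when any 1 C43 library was left out, and the falls 7 with either GFP-negative library of C50 left out. Relb, a subunit of the factor, went from 20.08 and 20.71 to 4.88 and 5.34 TPM (-1.81, adjusted p = 1.05e-05), and Lcn2, the secreted lipocalin of injured tubules, from 2306.90 and 2027.16 to 999.58 and 1237.32 TPM (-0.96, adjusted p = 0.000724, but 0.0546 with the 4 C43 libraries alone). Genes known to respond to cAMP were mixed too, with 7 of 22 higher and 2 lower; the 7 became 3 when either GFP-negative library or replicate 2 of the GFP-positive fraction was left out. Cited1, a transcriptional coregulator, went from 15.65 and 16.67 to 36.85 and 50.33 TPM (1.36, adjusted p = 0.000567), and Gem, a small GTP-binding protein, from 5.83 and 4.47 to 1.24 and 1.30 TPM (-1.43, adjusted p = 0.000523). Of the 24 genes of the cAMP pathway itself, 3 rose and 2 fell; none fell with median-ratio scaling, after quantile normalization, or when either GFP-negative library or replicate 2 of the GFP-positive fraction of C43 was left out. The rises numbered 8 after quantile normalization and 5 with either GFP-negative library of C50 left out.

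Lists of epithelial structure, trafficking, Wnt signaling and interferon response are to be read against 16.3% of all genes called in either direction. The list of trafficking, with 5 of 29 called, was near this share. Those of cholesterol synthesis, glycolysis and hypoxia, and ribosomal proteins were near or below it. Of 25 junction genes, 4 fell and 2 rose; 2 fell when either GFP-negative library or replicate 1 of the GFP-positive fraction of C43 was left out, and 9 with either GFP-negative library of C50 left out. Cldn6, a claudin of embryonic epithelia, went from 640.01 and 537.96 to 116.65 and 134.02 TPM (-2.22, adjusted p = 4.99e-07), and Cldn8, a claudin of the distal nephron, from 408.79 and 458.13 to 1001.83 and 798.57 TPM (1.05, adjusted p = 0.00189). Of 29 genes of Aqp2 trafficking, 3 fell and 2 rose, a balance that turned with median-ratio scaling (2 fell, 5 rose) and quantile normalization (3 fell, 4 rose); 1 rose without replicate 1 of the GFP-negative fraction. Msn, moesin, which links actin to the membrane, went from 161.67 and 138.98 to 34.02 and 30.98 TPM (-2.17, adjusted p = 0.000365), and Rab11a, a GTPase of recycling endosomes, from 372.04 and 419.49 to 607.17 and 578.74 TPM (0.58, adjusted p = 0.00402, but 0.0515 without replicate 1 of the GFP-negative fraction and 0.0521 with the 4 C43 libraries alone). Of 13 Wnt genes, 2 fell, Wnt10a and Wnt7a (53.34 and 54.77 against 7.31 and 3.81 TPM), and 1 rose, a rise that was lost when either replicate of the GFP-negative fraction was left out and with the 4 C43 libraries alone. Of 7 keratins, 4 rose (2 without replicate 2 of either fraction), with Krt23 from 56.74 and 66.37 to 164.51 and 172.28 TPM (1.44, adjusted p = 2.26e-05) and Krt19 from 1207.15 and 1307.01 to 2017.57 and 2081.67 TPM (0.71, adjusted p = 0.000996). After quantile normalization 2 keratins rose, Krt8 was at 0.07 (adjusted p = 0.751) and Krt18 turned to -0.11 (adjusted p = 0.576). Of 29 interferon genes, 6 rose, with 2 or 3 rises when either GFP-negative library or replicate 2 of the GFP-positive fraction was left out and 10 after quantile normalization. In that list 1 fell, H2-K1, a class I antigen with close copies, at 511.22 and 487.62 against 300.49 and 306.94 TPM. The 29 ribosomal protein genes held 1 fall and no rise, 24 genes of cholesterol synthesis 3 falls and no rise (1 fall when any 1 C43 library was left out, 7 with either GFP-negative library of C50 left out), and 23 genes of glycolysis and hypoxia 1 rise and 2 falls (3 and 1 with median-ratio scaling, 5 and 3 after quantile normalization). Of 24 immediate early genes 5 rose and 2 fell, with 2 rises when either GFP-negative library or replicate 2 of the GFP-positive fraction was left out and 9 with either GFP-negative library of C50 left out or with median-ratio scaling. Without C50, 5 Wnt, 4 ribosomal protein, 7 glycolysis and hypoxia, 4 cAMP pathway and 5 immediate early genes fell, beside 2696 of all 13113 genes. Every count given for another setting is to be read against the calls over all genes in that setting.

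Most of the C43 change was shared in direction with the other clones. The clones share no library, only the estimate of the spread and the filter on low values. Of the 2134 genes called in C43, 1886 had the same sign in C1, C11 and C50. The same share over all genes tested was not counted, so how far the called genes exceed it cannot be said. Across all genes tested, the changes in C43 correlated with those in C1, C11 and C50 by a Spearman rho of 0.549, 0.711 and 0.474. In C1, 704 of the 2134 were called too, which is 33% of the C43 calls and 74.3% of the C1 calls, and 4 of these went the other way. In C11, 909 were called (42.6% of C43 and 87.3% of C11 calls), none the other way. In C50, 1390 were called (65.1% of C43 and 39.9% of C50 calls), 9 the other way. A core of 432 genes was called in all 4 clones, 150 higher in each, 281 lower in each and 1 of mixed direction. For these the median size of the log2 change was 1.08 in C43, against 0.928 in C1, 0.892 in C11 and 1.23 in C50. The G2 and M phase list had a median of -1.43 in C43, between -1.06 in C11 and -1.55 in C50 and below -0.425 in C1. Medians of the principal cell list were 0.743 in C43 and 0.583, 0.526 and 1.19 in C1, C11 and C50, and those of the mesenchymal list were -0.967 in C43 and -0.799, -0.889 and -0.941.

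**Figure D3:**
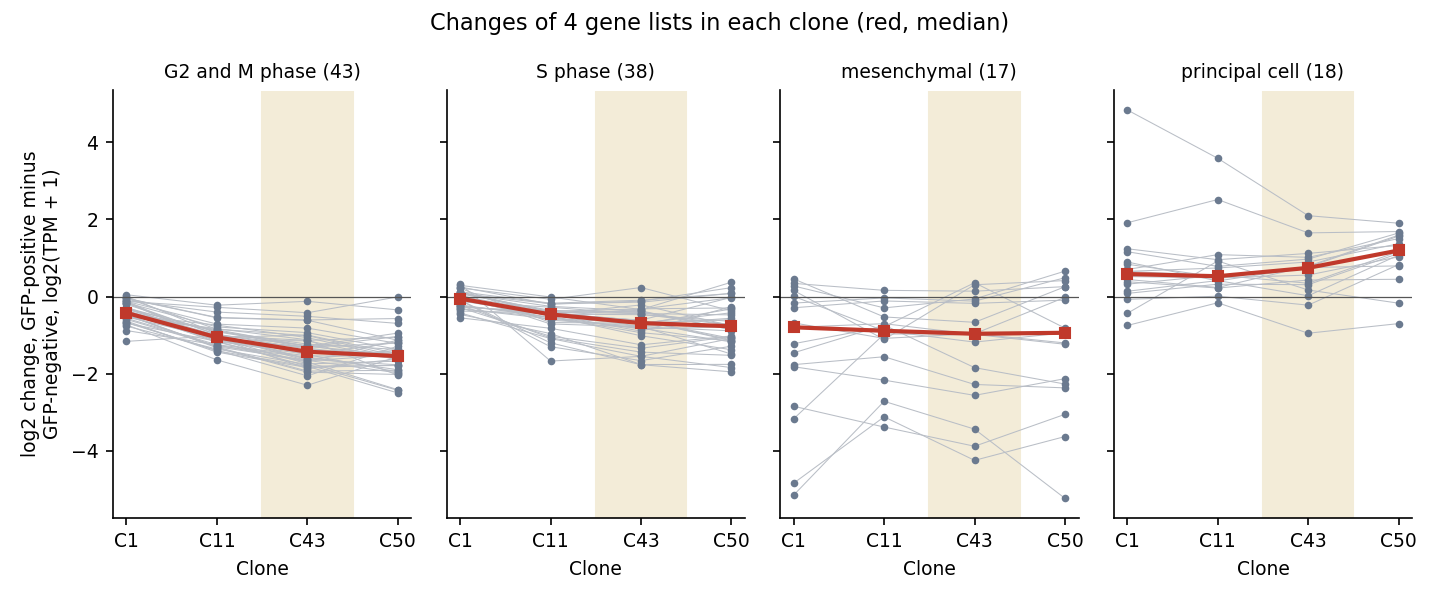
log2 change (GFP-positive minus GFP-negative, on log2(TPM + 1)) in each clone for the genes of 4 lists; points are genes, thin lines join the same gene, red squares are medians and the shaded column is C43. Medians in C43 are -1.43, -0.689, -0.967 and 0.743 from left to right.

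Few genes set C43 apart from the other clones when the difference itself was tested. The change in C43 was compared with the mean change of C1, C11 and C50, and 6 of 13113 genes (0.0458%) passed, 2 with a more positive and 4 with a more negative change in C43. At an unadjusted p under 0.05 there were 911 genes, 6.95% of those tested. There were 563 genes called in C43 and in no other clone, 117 higher and 446 lower. Of these, 410 had the same sign in all 3 other clones, a share that was not counted over all genes tested. Of the 563, Bsnd passed the test of the difference, and so did Gm24278, an entry that entered the test only through its values in GFP-positive C43 cells. The median SE of the difference was 0.273, against 0.237 for the C43 change alone. Of the 6, Tnfrsf12a, Stbd1 and Bsnd passed the test, had a mean of at least 5 TPM and changed in C43 by an amount outside the range of the other clones. All 3 were lower in GFP-positive cells. The C43 change lay outside that range in 6160 of the 13113 genes tested, so lying outside it is common.

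**Figure D4:**
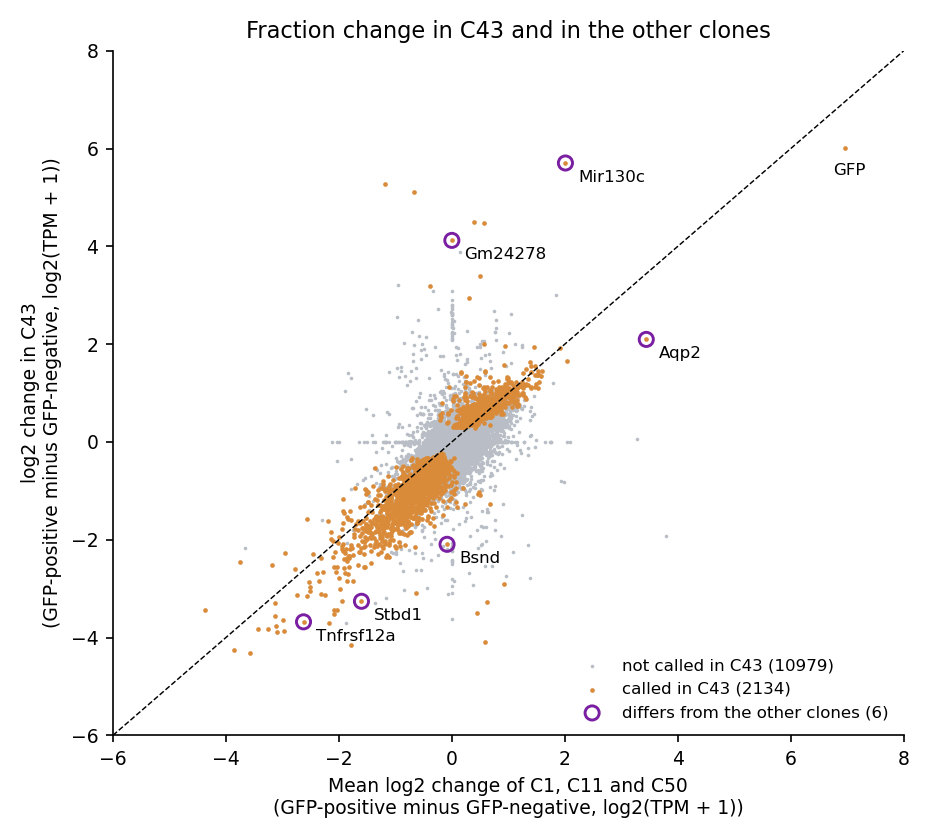
log2 change in C43 against the mean log2 change of C1, C11 and C50 (both GFP-positive minus GFP-negative, on log2(TPM + 1)) for the 13113 genes tested; the dashed line marks equal change, orange points are the 2134 genes called in C43, and rings are the 6 genes whose change differed from the other clones. Of the called genes, 1158 changed in C43 by an amount outside the range of the other clones. Aqp2 lies below the line at 2.10 against 3.44.

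Tnfrsf12a encodes the receptor of the cytokine TWEAK. In C43 it was at 995.56 and 883.94 TPM in GFP-negative and at 76.05 and 68.79 TPM in GFP-positive cells, 13.0 times lower. Its log2 change was -3.68 in C43, -2.08 in C1, -2.43 in C11 and -3.37 in C50, and C43 exceeded the mean of the other clones by 1.05 in the downward direction (difference -1.05, SE 0.114, adjusted p = 0.00657). The GFP-positive libraries of C43 were the lowest of all clones, below 88.47 and 91.40 TPM in C50, while the GFP-negative ones overlapped with 915.42 and 958.87 TPM in C50. Unsorted WT cells held 545.26 to 635.43 TPM with vehicle and 431.67 to 622.89 TPM with dDAVP.

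Stbd1 encodes a glycogen-binding protein with a starch-binding domain. It was at 75.79 and 62.93 TPM in GFP-negative and at 6.70 and 5.96 TPM in GFP-positive C43 cells, 11.0 times lower. The log2 change was -3.26 in C43, -1.31 in C1, -2.42 in C11 and -1.08 in C50 (difference -1.66, SE 0.187, adjusted p = 0.00728). In the GFP-negative fraction the level in C43 overlapped with that in C1 (74.43 and 87.65 TPM) and in C11 (63.98 and 65.89 TPM). In the GFP-positive fraction it was below every other clone, of which C11 was the lowest with 10.59 and 12.14 TPM.

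Bsnd encodes barttin, the accessory subunit of the ClC-K chloride channels. It was at 22.49 and 20.25 TPM in GFP-negative and at 3.86 and 4.64 TPM in GFP-positive C43 cells, 5.03 times lower (log2 change -2.09, SE 0.214, adjusted p = 8.75e-05). No other clone passed the test for this gene, with changes of 0.55 in C1, -0.69 in C11 and -0.12 in C50 (adjusted p = 0.173, 0.0797 and 0.72). The difference was -2.01 (SE 0.247, adjusted p = 0.0133). The 2 GFP-negative libraries of C50 were at 16.35 and 27.59 TPM, on either side of its GFP-positive libraries (20.44 and 18.64 TPM).

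**Figure D5:**
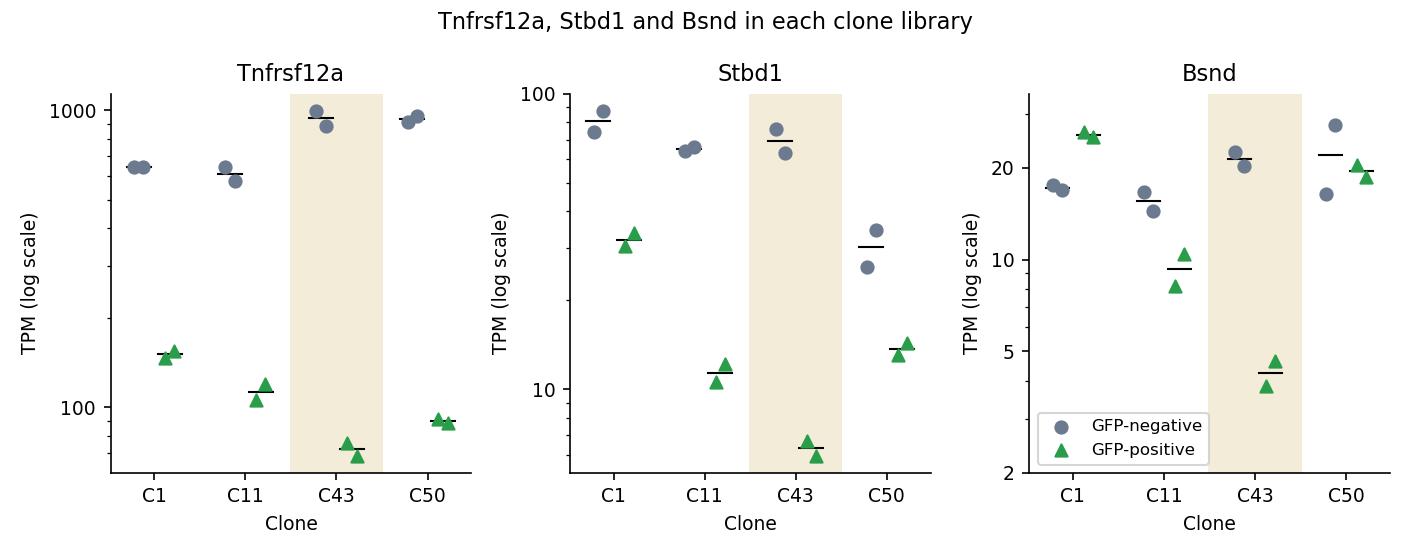
Tnfrsf12a, Stbd1 and Bsnd in TPM on a log axis for every clone library; circles are GFP-negative and triangles GFP-positive libraries, black bars are means of 2 libraries, and the shaded column is C43. In each panel the GFP-positive libraries of C43 are the lowest points, at 76.05 and 68.79, 6.70 and 5.96, and 3.86 and 4.64 TPM.

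These 3 calls were lost without C1 and without 1 library of C43, while the differences kept most of their size. Without C1 as a reference they were -0.78 for Tnfrsf12a (adjusted p = 0.255), -1.51 for Stbd1 (0.0832) and -1.69 for Bsnd (0.302). Without replicate 1 of the GFP-negative fraction of C43 they were -0.97 (adjusted p = 0.0534), -1.53 (0.0804) and -1.94 (0.142). Bsnd was also lost without replicate 1 of the GFP-positive fraction of C43 (-1.90, adjusted p = 0.0501), and Tnfrsf12a with median-ratio scaling (-0.91, adjusted p = 0.179). A test for a difference of at least 1 gave an adjusted p of 1 for each. With a replicate block Bsnd and Tnfrsf12a were lost too (adjusted p = 0.208 and 0.113). All 3 differences stayed negative, and all 3 changes within C43 passed, in every alternative that tested for a change of any size.

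The other genes that passed were Aqp2 and Mir130c, both described above, and Gm24278, a short RNA entry with a provisional symbol, outside the rule for named genes. Gm24278 was listed at 0 in both GFP-negative libraries of C43 and at 22.30 and 12.01 TPM in the GFP-positive ones, and at 0 in all 12 libraries of the other clones. It passed the filter on low values only through the fraction where it is high, so its test supports nothing; 1 of 3 WT vehicle libraries held 6.92 TPM. Mir130c was at 0 in all libraries of C11 and C50 and rose in C1 as in C43, from 0 and 0 to 41.87 and 98.95 TPM, so its difference (adjusted p = 0.0147) was not particular to C43. That call was lost with all 22 libraries (adjusted p = 0.416), in a test for a difference of at least 1 (0.394) and with a replicate block (0.113). It was also lost without C11 (0.32), without C50 (0.129) and without replicate 1 of the GFP-negative fraction of C43.

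The number of genes that differed between C43 and the other clones depended strongly on the GFP-negative libraries of C50. Leaving out replicate 2 of that fraction gave 679 genes, 84 with a more positive and 595 with a more negative change in C43, whereas leaving out replicate 1 gave 15 (5 more positive, 10 more negative) and leaving out C50 gave 19, of which 18 were more negative. Of the 15 genes, 14 were among the 679, and 9 were called in all 3 settings. Replicate 1 had a ribosomal protein share of 8.13% of TPM, the highest of the clone libraries, against 4.71% in replicate 2, and the part of this in the counts was not tested. Without replicate 2 of the GFP-negative or replicate 1 of the GFP-positive fraction of C43 there were 24 genes each, 22 and 17 of them more negative. Without replicate 2 of that GFP-positive fraction there were 27, and the direction turned, with 23 more positive and 4 more negative. Leaving out replicate 1 or replicate 2 of the GFP-negative fraction of C1 gave 10 each, 6 more positive and 4 more negative. The genes that passed without C50 included the cell cycle genes Rrm2, Aurkb, Cdca5, Plk4, Birc5, Mad2l1, Mybl2 and Spc24, which fell more in C43 than the mean of C1 and C11 and were picked here after their values were seen. With all clones in the fit, Rrm2 changed by -1.77 in C43 and by -0.10, -1.20 and -1.95 in C1, C11 and C50 (adjusted p of the difference 0.681), so for this gene C50 fell as far. For Plk4 it did not, with -1.85 in C43 and -0.41, -1.20 and -1.21 in C1, C11 and C50 (adjusted p of the difference 0.221 with all libraries, and 0.0402 without replicate 1 of the GFP-negative fraction of C50). Gadd45a and Ccn2, both lower in GFP-positive C43 cells, also passed without C50 (differences -0.90, adjusted p = 0.031, and -0.74, adjusted p = 0.0258) and did not with all clones (-0.79, adjusted p = 0.163, and -0.57, adjusted p = 0.388). For both, C43 lay outside the range of the other clones, as it did in 6160 of the 13113 genes tested. Gadd45a changed by -2.69 against -1.28, -2.30 and -2.11 in C1, C11 and C50, and Ccn2 by -1.18 against 0.0034, -0.89 and -0.94.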

How the data were processed

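RNA of sorted GFP fractions was made into SMART-Seq HT cDNA and sequenced paired-end, per the labels' protocols. STAR and RSEM are named in the submitters' processing notes, and their roles, versions and the genome build are not given in the sources used here. The authors deposited 1 table with TPM per library, the means of each group and the ratio of the group means, per the file headers. Of 55415 lines, 980 shared a gene symbol and were summed, which left 54514 entries. TPM keeps no depth.

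The 13113 genes whose TPM averaged 1 or more in the 16 clone libraries were tested on log2(TPM + 1), so that fold changes of low genes are understated. The model in limma 3.58.1 (R 4.3.3) had a mean for each of the 8 clone-and-fraction groups, which share 1 estimate of the spread (8 residual degrees of freedom, variance trend). Contrasts were GFP-positive minus GFP-negative in C43, and that change minus the mean change of C1, C11 and C50, two-sided, with Benjamini-Hochberg adjustment over all genes tested. A change was called particular to C43 where the second contrast passed an adjusted p of 0.05 and the C43 change lay outside the range of the other clones. Named genes were Aqp2 and GFP; called genes averaging 5 TPM or more in C43, the 8 that rose most and the 8 that fell most, provisional symbols left out; up to 8 each way particular to C43 with a mean of at least 5 TPM over the clone libraries; and members of 28 gene lists. The members, lists, motifs and tests were chosen with earlier results of these data known. Alternatives varied the pseudocount, filter, scaling, variance model, threshold and libraries.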

Additional observations from a re-analysis of the deposited data

Results flagged for a closer look

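In 6 genes the change between the C43 fractions differed from the mean change of the other clones by the test of the difference itself (limma, adjusted over all genes tested). On the log2(TPM + 1) scale the difference was -2.01 for Bsnd (adjusted p = 0.0133), -1.66 for Stbd1 (adjusted p = 0.00728), -1.35 for Aqp2 (adjusted p = 0.000429) and -1.05 for Tnfrsf12a (adjusted p = 0.00657). In each of these 4 the change was more negative, or the rise smaller, in C43 than in the mean of the other clones, and for Bsnd no other clone passed the test. For the short RNA entries Mir130c and Gm24278 the difference was 3.69 (adjusted p = 0.0147) and 4.12 (adjusted p = 0.000915), and both were listed at 0 in the GFP-negative libraries of C43. Gm24278 entered the test only through the fraction where it is high, and its call was lost with a pseudocount of 0.1 (adjusted p = 0.143) and with all 22 libraries (0.0586). The Mir130c call was lost in 6 alternatives, with adjusted p values of 0.113 to 0.416. Of these, Aqp2 and Mir130c lay inside the range of the other clones.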

How the results depend on the processing

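In C43 the changes of Aqp2 (1.58 to 2.28) and GFP (5.91 to 6.19) passed in all alternatives that tested for a change of any size. For GFP this was fixed by the sorting. The 2134 genes called became 1346 with any TPM above 0 as the filter, 823 with the 4 C43 libraries alone, 88 when a log2 change of at least 1 was tested (5 higher, 83 lower), 3648 without C50, and 881 to 3901 with single libraries left out; the settings that leave out C50 or its libraries here were chosen after seeing the data. The 6 genes that differed from the other clones became 10 with any TPM above 0, 12 with all 22 libraries, 1 when a difference of at least 1 was tested, 19 without C50 and 5 to 679 with single libraries left out. The Aqp2 difference was -1.20 with median-ratio scaling and -0.65 without C1, neither past the threshold, and -1.41 to -1.28 with single libraries left out. The GFP difference passed with quantile normalization at -0.98 and ranged from -1.11 to -0.81 with single libraries left out. The causes were not tested.

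Replicate numbers do not pair the fractions by the labels, and deviations of same-numbered libraries correlated by 0.203 in C43 and by 0.0544, 0.0151 and 0.0825 in C1, C11 and C50. With a replicate block 1587 genes were called in C43 and 3 differed from the other clones, with Stbd1 and Aqp2 kept (adjusted p = 0.0495 and 0.0442) and Bsnd, Tnfrsf12a and Mir130c not (0.208, 0.113 and 0.113).

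Of 98 single-gene changes in C43, 55 kept their call in all alternatives that tested for a change of any size, the only ones counted here. Over 1761 comparisons 144 lost it and 1 turned its sign, Krt18 at -0.11 with quantile normalization. Of 10 differences from the other clones, 17 of 289 comparisons lost and 10 gained a call. Gm24278, Cdh2 and Gem gave no value with the filter of at least 5 TPM. Unknown depth limits what can be said of genes near 0.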
